A study of Mus musculus with 8 samples.

Results

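Nuclear hormone receptors are transcription factors that most often bind a small fat-soluble ligand, such as a steroid, thyroid hormone, retinoic acid, vitamin D or an oxysterol, and switch genes on or off at the DNA elements they recognise. Many of them act as pairs with a retinoid X receptor (RXR), and others, called orphan receptors, have no settled natural ligand or are set by their own transcript level. In growing bone, the thyroid hormone, vitamin D, glucocorticoid, oestrogen and retinoic acid receptors are known as regulators of growth plate chondrocytes and osteoblasts. The 32 genes described here are mouse nuclear receptor genes, chosen by name, with earlier results of these data known, out of 48490 genes in the table. Pparg, the adipogenic receptor, is not one of the 32 and is given only as a neighbour.

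The receptors were measured in descendants of hypertrophic chondrocytes, the swollen cells that end the growth plate's column, from the proximal tibia of mice at postnatal day 5. All mice carried Col10a1Cre, a Cre recombinase driven by the hypertrophic chondrocyte gene Col10a1, and Rosa26-Tdtomato, a reporter that marks recombined cells red. GoF (gain of function, 2 libraries) mice also carried Ctnnb1-exon3 Δ/+, in which 1 allele of the β-catenin gene lacks the exon that marks the protein for degradation. LoF (loss of function, 4 libraries) mice carried Ctnnb1Δ/Δ, and WT (2 libraries) mice had only the Cre and the reporter. Each library held 70 tdTomato-positive cells picked by hand, so a library is a mixture of whatever cell types carry the label. The labels do not say whether the libraries of a group came from separate animals, so p-values speak only of variation among these libraries, which may be technical.

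Expression is given as FPKM, a fragment count divided by gene length and by the library's size, which allows levels to be set side by side between genes. Genes listed above 0 numbered 12587 to 13944 per library. Ctnnb1 itself was at 72.0 and 86.7 FPKM in GoF, at 67.3 to 81.1 FPKM in LoF and at 137 and 146 FPKM in WT, and a value over the whole gene does not show which exons were read. Axin2, a β-catenin target, was at 5.26 and 2.80 FPKM in GoF, at 0 throughout LoF, and at 0 and 0.323 FPKM in WT. Y-linked transcripts were present in both GoF libraries and in LoF libraries 2 and 3, and Xist in the other LoF libraries and both WT libraries. In GoF against WT, genotype and sex-linked transcripts therefore cannot be told apart. A fit with sex as a covariate takes its sex term from the LoF libraries alone, so a call lost in it does not separate sex from genotype. A gene was tested where its FPKM reached 1 in at least 2 of the 8 libraries, and it was called where limma, over all 12888 genes tested, gave a Benjamini-Hochberg adjusted p under 0.05. Of the 32 receptors, 21 were tested. The other 11 did not reach the filter, and 2 of these, Rxrg and Nr5a2, were at 0 in all 8 libraries. Among the 21, Rarb, Nr1h3 and Nr2f2 would not have reached the filter without the LoF libraries, where they are high. Esrra reached 1 FPKM only in GoF library 1 and LoF library 2. None of them was called, and they stay in the counts below.

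In GoF, 3 receptors were called against LoF, and 2 of these were also called against WT. Nr4a2, an orphan receptor of the NR4A family induced as an immediate early gene, rose in GoF against both LoF and WT. Vdr, the vitamin D receptor, fell in GoF against both. Thra, the thyroid hormone receptor alpha gene, fell in GoF against LoF. Each of the 3 reached the filter also without the group in which it was highest. Between LoF and WT, 0 of 21 receptors passed the limma test, and 1, Nr1d2, had an unadjusted p under 0.05. In libraries of pooled cells, fewer cells of a type and less RNA per cell cannot be told apart, which holds for each level below.

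The counts of called receptors are given here beside those of all tested genes. In GoF against LoF, 3 of 21 receptors (14.3%) were called, where 11.6% of all tested genes were. Of these, 1 was higher and 2 were lower, where 5.97% of all tested genes were called higher and 5.68% lower. In GoF against WT, 2 of 21 (9.52%) were called, against 2.31% of all tested genes. Of these, 1 was higher and 1 was lower, where 1.41% of all tested genes were called higher and 0.9% lower. In LoF against WT, 0 of 21 were called, against 1.23% of all tested genes, with 0.566% higher and 0.667% lower. The median log2 fold change of the 21 receptors was -0.07 in GoF against LoF, where all tested genes had a median of -0.17. In GoF against WT the receptor median was -0.01 and that of all genes -0.08, and in LoF against WT they were 0.11 and 0.06. A log2 fold change here is a difference of group means on the log2(FPKM + 1) scale, which understates the change of low genes. A fold is the ratio of mean FPKM, so it can exceed what the log2 value gives.

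Libraries of the 2 groups did not overlap for 8 of 21 receptors (38.1%) in GoF against LoF, 2 higher and 6 lower, where 33.5% of all tested genes did not overlap (14.8% higher and 18.7% lower). In GoF against WT, 11 of 21 receptors (52.4%) did not overlap, 4 higher and 7 lower, where 48.0% of all tested genes did not (21.8% higher and 26.2% lower). In LoF against WT, 5 of 21 (23.8%) did not overlap, 2 higher and 3 lower, where 21.4% of all tested genes did not (11.5% higher and 9.88% lower). The receptors' shares are thus close to those of genes in general. Rarb is among those lower in both GoF comparisons, and it would not have reached the filter without LoF, where it is high.

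**Figure D1:**
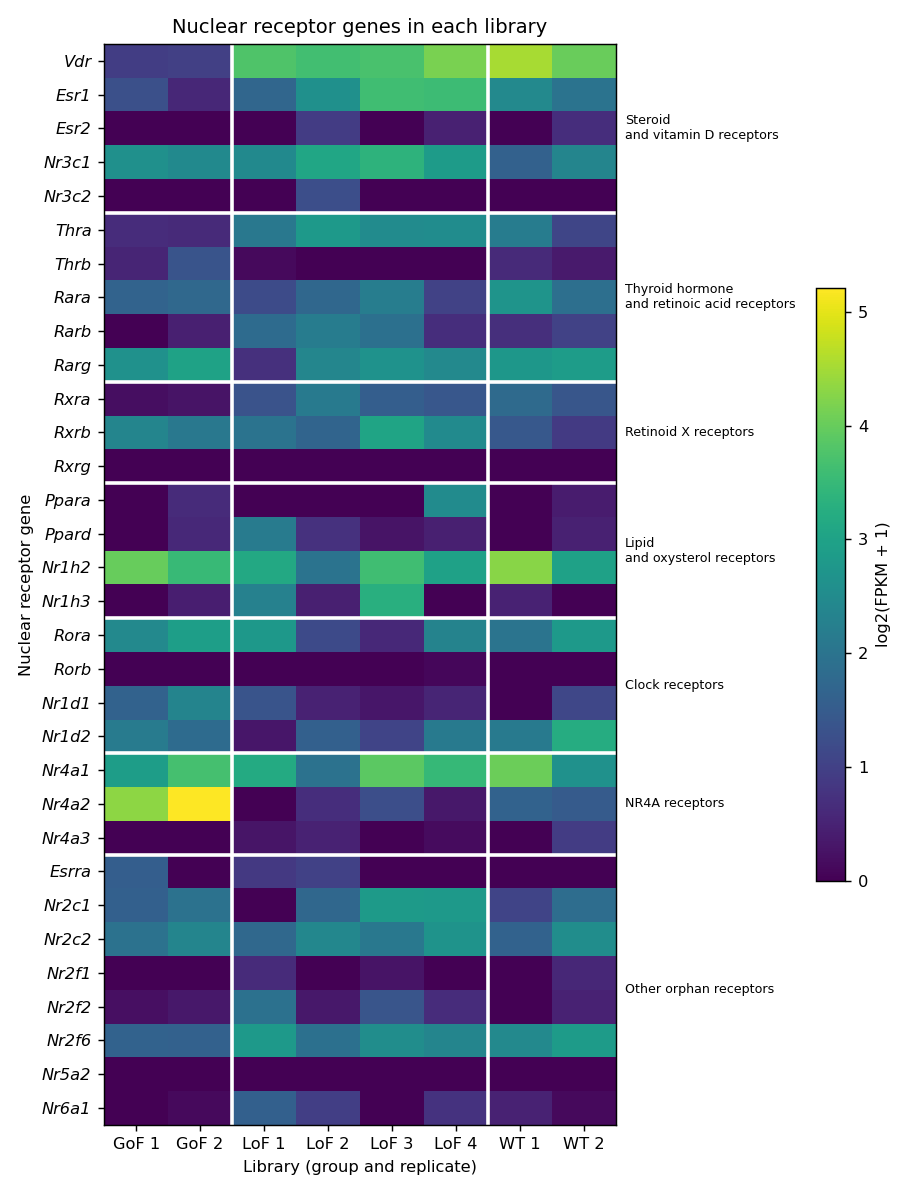
FPKM of the 32 nuclear receptors on a log2(FPKM + 1) colour scale, by role (rows) and library (columns, GoF, LoF and WT). Nr4a2 is brightest in the 2 GoF libraries and Vdr is bright in the 6 LoF and WT libraries, while Rxrg and Nr5a2 are at 0 throughout.

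The leading receptor of the cells differed between GoF and the other groups. Nr4a2 was the most abundant of the 32 in both GoF libraries, with 23.9% and 34.8% of their summed FPKM, against 0% to 1.23% in LoF and 2.13% and 2.20% in WT. Vdr held 1.17% and 0.946% of the sum in GoF, against 10.8% to 17.1% in LoF and 22.1% and 18.4% in WT. Vdr ranked first of the 32 in both WT libraries and in LoF libraries 1, 2 and 4, and was second to Nr4a1 in LoF library 3. The sum itself was 79.9 and 103.6 FPKM in GoF, 71.3 to 111.7 FPKM in LoF and 99.7 and 83.0 FPKM in WT, so the groups overlapped in the total while differing in which receptor led. Between 14 and 18 receptors reached 1 FPKM in each library.

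The promoters of the 2 receptors called in both GoF comparisons are shown because they carry the opposite changes. Each is the 250 bases before the RefSeq start in GRCm38.p6, read 5′ to 3′ on the gene's own strand. Capitals mark TGACG, the pentamer at the core of the cAMP response element bound by CREB, on either strand (CGTCA where it lies on the other strand). The first window lies at chr2:57124004-57124253 on the minus strand, directly upstream of Nr4a2, and is 80% G or C. The second lies at chr15:97908297-97908546 on the minus strand and is 61.2% G or C, where the median of all windows is 52.4%. It lies inside the Vdr locus of the authors' table, chr15:97854425-97910630, because the RefSeq start used lies within that locus.
Nr4a2: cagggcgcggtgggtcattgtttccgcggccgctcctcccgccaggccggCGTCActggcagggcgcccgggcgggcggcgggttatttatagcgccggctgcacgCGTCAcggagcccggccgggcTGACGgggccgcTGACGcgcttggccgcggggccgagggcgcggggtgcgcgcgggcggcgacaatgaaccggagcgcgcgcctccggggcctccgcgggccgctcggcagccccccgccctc
Vdr: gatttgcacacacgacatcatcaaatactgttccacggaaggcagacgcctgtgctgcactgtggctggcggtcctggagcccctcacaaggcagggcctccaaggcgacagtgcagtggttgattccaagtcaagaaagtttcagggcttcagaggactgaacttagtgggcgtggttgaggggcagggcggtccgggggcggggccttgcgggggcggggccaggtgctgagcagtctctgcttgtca

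The Nr4a2 window held 4 TGACG matches, 2 on each strand, at 107, 119, 140 and 196 bases upstream of the start. The Vdr window held none. TGACG was found in 17.8% of 32851 RefSeq windows of the same length and in 11 of the 44 windows of the 30 receptors that had one. Nr4a1 and Nr4a3, the close relatives of Nr4a2, also had 4 matches each, and of these Nr4a1 was not called and Nr4a3 was not tested. The full palindrome TGACGTCA, which contains TGACG, was in 1.55% of all windows and in 0 of these 44. CTTTGAT, the element bound by the β-catenin partners TCF and LEF, was in 3.21% of all windows and in 1 of the 44, that of Nr2f2. Its first 6 letters, CTTTGA, were in 13.8% of all windows and in 2 of the 44, those of Nr2f2 and Ppard. AGGTCA, the hexamer that many nuclear receptors bind, was in 14.02% of all windows and in 7 of the 44. All motifs were searched on both strands, and a match is a description of letters, not a bound site.

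Nr4a2 (ENSMUSG00000026826.13, chr2:57106830-57124003 in mm10, minus strand) encodes NURR1, which binds DNA alone or with RXR and has no classical ligand pocket. It was at 19.1 and 36.0 FPKM in GoF, at 0, 0.605, 1.38 and 0.258 FPKM in LoF and at 2.13 and 1.82 FPKM in WT. Both GoF libraries were above every other library, and the LoF libraries were all below both WT libraries. The means were 27.5 ± 12.0 FPKM in GoF (SD, n = 2), 0.560 ± 0.599 FPKM in LoF (n = 4) and 1.98 ± 0.216 FPKM in WT (n = 2). The level was higher in GoF than in LoF, with 4.20 as the log2 fold change (SE 0.51, adjusted p = 0.000779, limma). Against WT it was 13.9-fold higher, and the log2 fold change was 3.20 (SE 0.59, adjusted p = 0.0230, limma). LoF and WT did not overlap, but the difference of -1.01 (SE 0.51) did not pass (adjusted p = 0.446, limma). Among 12888 genes the rise of Nr4a2 was the 62nd largest in GoF against LoF and the 85th largest in GoF against WT. The call against LoF held in 13 of 13 other settings, with adjusted p up to 0.0194. The call against WT held in 4 of 11 and was lost without any 1 of the 4 libraries, with adjusted p = 0.0926 without GoF library 1, 0.186 without GoF library 2, 0.154 without WT library 1 and 0.133 without WT library 2 (limma). Among 6 chondrocyte markers, Col11a1, a cartilage collagen, was also higher in both GoF libraries (240 and 230 FPKM) than in LoF (21.5 to 53.0 FPKM) and WT (159 and 146 FPKM), and its part in the Nr4a2 result was not tested. The other 5 were not called in GoF against LoF. Their log2 fold changes were 1.63 for Col2a1, -0.02 for Matn3, -0.03 for Col9a1, -0.41 for Acan and -0.79 for Sox9. The median of the 6 was -0.03. Against WT, Col11a1 was not called (log2 fold change 0.62, SE 0.41, adjusted p = 0.573, limma).

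Of the other NR4A genes, Nr4a1 was not called in any comparison and Nr4a3 was not tested. Nr4a1 encodes NUR77, also an immediate early gene product. Its FPKM was 6.42 and 11.7 in GoF, 8.07, 2.92, 13.9 and 10.2 in LoF and 15.4 and 5.21 in WT, and all 3 groups overlapped. Nr4a3, the gene of NOR1, stayed under 1 FPKM in every library. Nr4a2 made up 74.8% and 75.5% of the summed NR4A FPKM in GoF, against 0% to 15.4% in LoF and 12.1% and 23.0% in WT.

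Vdr (ENSMUSG00000022479.15, minus strand) encodes the receptor for 1,25-dihydroxyvitamin D, which works as a pair with RXR. It was at 0.932 and 0.981 FPKM in GoF, at 12.6, 11.3, 12.1 and 16.9 FPKM in LoF and at 22.0 and 15.3 FPKM in WT. Both GoF libraries lay below all 6 others, and LoF and WT overlapped. The means were 0.956 ± 0.0344 FPKM in GoF (SD, n = 2), 13.2 ± 2.52 FPKM in LoF (n = 4) and 18.6 ± 4.74 FPKM in WT (n = 2). Vdr was about 13.8-fold lower in GoF than in LoF, and the log2 fold change was -2.85 (SE 0.37, adjusted p = 0.00105, limma). Against WT it was about 19.5-fold lower, and the log2 fold change was -3.31 (SE 0.43, adjusted p = 0.00414, limma). The difference between LoF and WT was -0.46 (SE 0.37, adjusted p = 0.645, limma). Among 12888 genes the log2 fold change of Vdr was the 52nd lowest in GoF against WT and the 198th lowest in GoF against LoF. The call against LoF held in 13 of 13 other settings, with adjusted p up to 0.0282. The call against WT held in 8 of 11 and was lost with sex as a covariate (adjusted p = 0.115), with the replicate number as a block (0.0580) and without WT library 1 (0.0652, limma). The summed pericyte and smooth muscle markers were also lower in both GoF libraries (5.86 and 6.94 FPKM) than in LoF (75.1 to 181 FPKM) and WT (53.5 to 68.2 FPKM). In LoF and WT that sum is mostly Myl9 and Acta2. Cspg4 of that list was at 3.01 and 3.22 FPKM in GoF, inside the LoF and WT ranges, and Tagln and Rgs5 overlapped between GoF and LoF. The adipocyte and marrow stromal sums were lower in both GoF libraries too. All of these sums were higher in every LoF library than in WT, while Vdr was not. The part of these markers in the Vdr result was not tested.

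**Figure D2:**
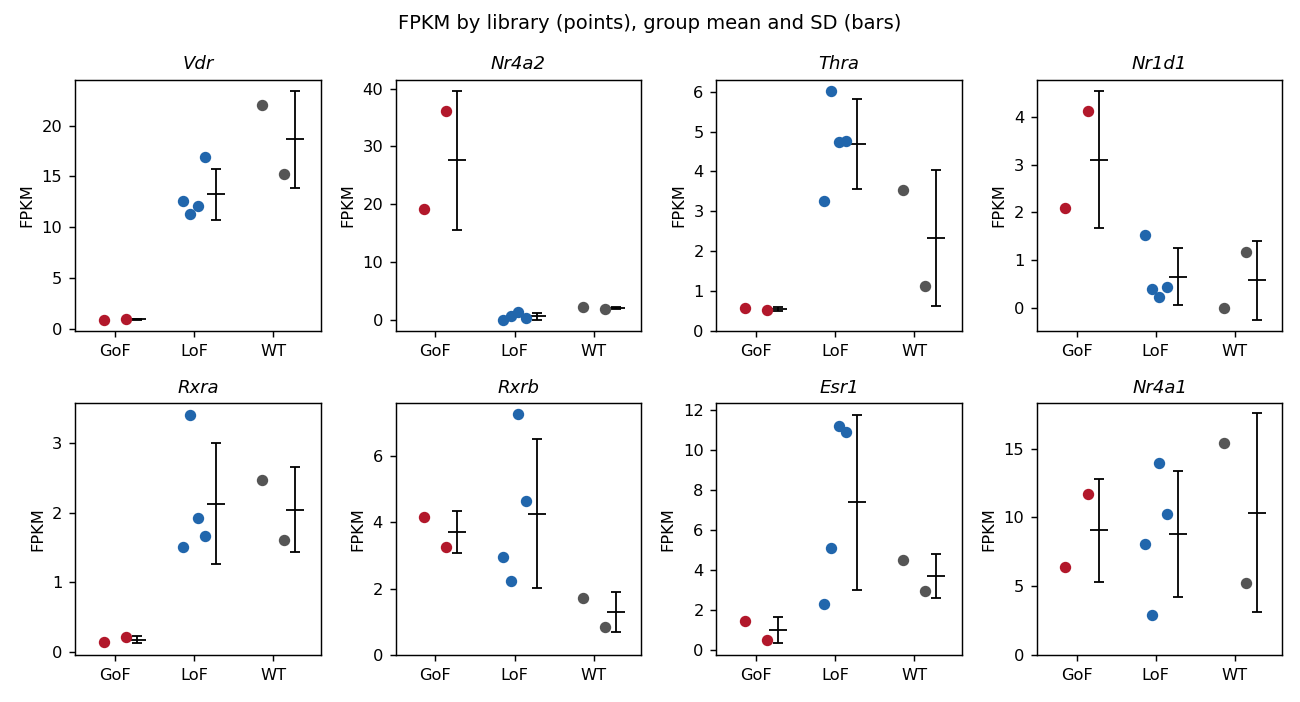
FPKM (linear axis) of Vdr, Nr4a2, Thra, Nr1d1, Rxra, Rxrb, Esr1 and Nr4a1, with 1 point per library for GoF, LoF and WT and bars for each group's mean and SD. The GoF points of Vdr lie near 1 FPKM and those of Nr4a2 at 19.1 and 36.0 FPKM, apart from all other libraries, while the 3 groups of Nr4a1 overlap.

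The 9 genes listed here for making, carrying, breaking down or responding to vitamin D were almost silent in all groups. The list says nothing of vitamin D targets outside it. None of the 9 genes of that list reached the filter, and 5 were at 0 in every library, among them Cyp24a1, the enzyme that inactivates vitamin D and a classical target of its receptor. The list summed to at most 0.239 FPKM in GoF, 3.09 FPKM in LoF and 0.547 FPKM in WT. The level of Vdr is therefore given without a reading of this target above 0.

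The steroid receptors showed lower levels of the oestrogen receptor alpha gene, Esr1, in GoF. Esr1 (ENSMUSG00000019768.16, chr10:4611593-5005614, plus strand) was at 1.42 and 0.498 FPKM in GoF, at 2.31, 5.10, 11.2 and 10.9 FPKM in LoF and at 4.49 and 2.93 FPKM in WT. Both GoF libraries were below all others, and the LoF libraries spread on both sides of the WT values. The difference of -1.95 between GoF and LoF (SE 0.60) did not pass (adjusted p = 0.0660, limma), nor did that of -1.29 between GoF and WT (SE 0.70, adjusted p = 0.464, limma). Without LoF library 1, the lowest of its group, the GoF against LoF difference passed (adjusted p = 0.0253, limma). Esr2, the gene of the second oestrogen receptor, was at 0.906 FPKM or below in every library.

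Nr3c1, the gene of the glucocorticoid receptor, was expressed in all 8 libraries. Its FPKM was 5.12 and 4.59 in GoF, 4.56, 7.44, 9.28 and 6.29 in LoF and 2.09 and 4.18 in WT. All 4 LoF libraries were above both WT libraries, but the difference of 0.95 (SE 0.44) did not pass (adjusted p = 0.400, limma). Nr3c2, the gene of the mineralocorticoid receptor, was at 0 in 7 of 8 libraries and at 1.40 FPKM in LoF library 2. Of 14 genes that handle glucocorticoids or respond to them, 13 were tested. In GoF against LoF, where 11.6% of all tested genes were called, 1 of the 13 was called. This was Tsc22d3, the gene of the glucocorticoid-induced protein GILZ, at 5.90 and 7.44 FPKM in GoF, at 17.2, 16.3, 33.2 and 16.1 FPKM in LoF and at 10.1 and 14.1 FPKM in WT. It fell 3.10-fold in GoF against LoF (log2 fold change -1.44, SE 0.39, adjusted p = 0.0417, limma), a call that held in 1 of 13 other settings. The median of the 13 genes was -0.16, near the -0.17 of all genes. Of 7 tested sex steroid enzymes and oestrogen targets, 0 were called in the 3 comparisons.

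Thra (ENSMUSG00000058756.13, chr11:98740638-98769006, plus strand) encodes the thyroid hormone receptor that dominates in bone. It was at 0.590 and 0.529 FPKM in GoF, at 3.27, 6.02, 4.74 and 4.77 FPKM in LoF and at 3.54 and 1.13 FPKM in WT. Both GoF libraries were below every other library, while LoF and WT overlapped. The mean of 0.559 ± 0.0434 FPKM in GoF (SD, n = 2) was lower than that of 4.70 ± 1.13 FPKM in LoF (n = 4), and the log2 fold change was -1.85 (SE 0.48, adjusted p = 0.0354, limma). Against WT the difference of -0.995 (SE 0.56) did not pass (adjusted p = 0.482, limma), and in LoF against WT that of 0.85 (SE 0.48) did not either (adjusted p = 0.508, limma). The GoF against LoF call held in 6 of 13 other settings and was lost without GoF library 1 (adjusted p = 0.223), GoF library 2 (0.195), LoF library 2 (0.0721) or LoF library 4 (0.0619, limma).

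The 3′ end of Thra overlaps that of Nr1d1 on the opposite strand over 1075 bases, chr11:98767932-98769006. The library method does not mark strand, so reads in that stretch cannot be assigned to either gene. Nr1d1 (ENSMUSG00000020889.11, minus strand) encodes the haem-binding clock repressor REV-ERB alpha. It was at 2.10 and 4.12 FPKM in GoF, at 1.54, 0.404, 0.242 and 0.448 FPKM in LoF and at 0 and 1.17 FPKM in WT. Both GoF libraries were above all others, the reverse of Thra, but the differences of 1.32 from LoF (SE 0.51, adjusted p = 0.135) and 1.43 from WT (SE 0.59, adjusted p = 0.293, limma) did not pass. Thrb, the gene of the second thyroid hormone receptor, was at 0.456 and 1.55 FPKM in GoF, at most 0.0940 FPKM in LoF and at 0.548 and 0.301 FPKM in WT, and was not tested.

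Among 10 genes of thyroid hormone transport, metabolism and response, 3 reached the filter. Crym, the gene of µ-crystallin, a protein of the cytosol that binds thyroid hormone, was at 5.91 and 7.81 FPKM in GoF and listed at 0 in all 4 LoF and both WT libraries. It reached the filter only through the 2 GoF libraries in which it is high, so its values are a description and no test is given. Without either GoF library it no longer reached the filter. The other 2 genes were not called in any comparison.

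The retinoic acid receptors, which pair with RXR and are repressors in growth plate cartilage without their ligand, were present at a few FPKM. Rarg, the form known from cartilage, was at 5.21 and 6.98 FPKM in GoF, at 0.660, 4.25, 5.32 and 4.48 FPKM in LoF and at 5.77 and 6.41 FPKM in WT. LoF library 1 was far below the rest, and LoF did not overlap WT. Rara was at 2.14 and 2.40 FPKM in GoF, at 1.28, 2.35, 3.63 and 1.04 FPKM in LoF and at 5.46 and 2.72 FPKM in WT, with both GoF libraries inside the LoF range. Rarb, itself a target of retinoic acid, was at 0 and 0.365 FPKM in GoF, at 2.53, 3.58, 2.79 and 0.597 FPKM in LoF and at 0.625 and 1.04 FPKM in WT. The GoF libraries were the lowest, and Rarb was not called in any comparison. Rarb reached 1 FPKM in 3 LoF libraries and in 1 WT library, so the LoF libraries, where it is high, decided that it was tested. Its values are therefore a description, with no test.

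The retinoid X receptors, the shared partners of the vitamin D, thyroid hormone, retinoic acid and lipid receptors, were carried by Rxra and Rxrb. Rxra (chr2:27676440-27762957, plus strand) was at 0.137 and 0.217 FPKM in GoF, at 1.51, 3.41, 1.93 and 1.66 FPKM in LoF and at 2.48 and 1.61 FPKM in WT. Both GoF libraries were below the 6 others, whose groups overlapped. The difference of -1.37 between GoF and LoF (SE 0.45) missed the threshold (adjusted p = 0.0783, limma) and passed only with a pseudocount of 0.1 (adjusted p = 0.0390). Against WT it was -1.36 (SE 0.51, adjusted p = 0.249, limma).

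Rxrb was at 4.16 and 3.27 FPKM in GoF, at 2.94, 2.22, 7.25 and 4.63 FPKM in LoF and at 1.72 and 0.855 FPKM in WT. Every GoF and LoF library was above both WT libraries. The LoF against WT difference of 1.13 (SE 0.51) did not pass (adjusted p = 0.376, limma).

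**Figure D3:**
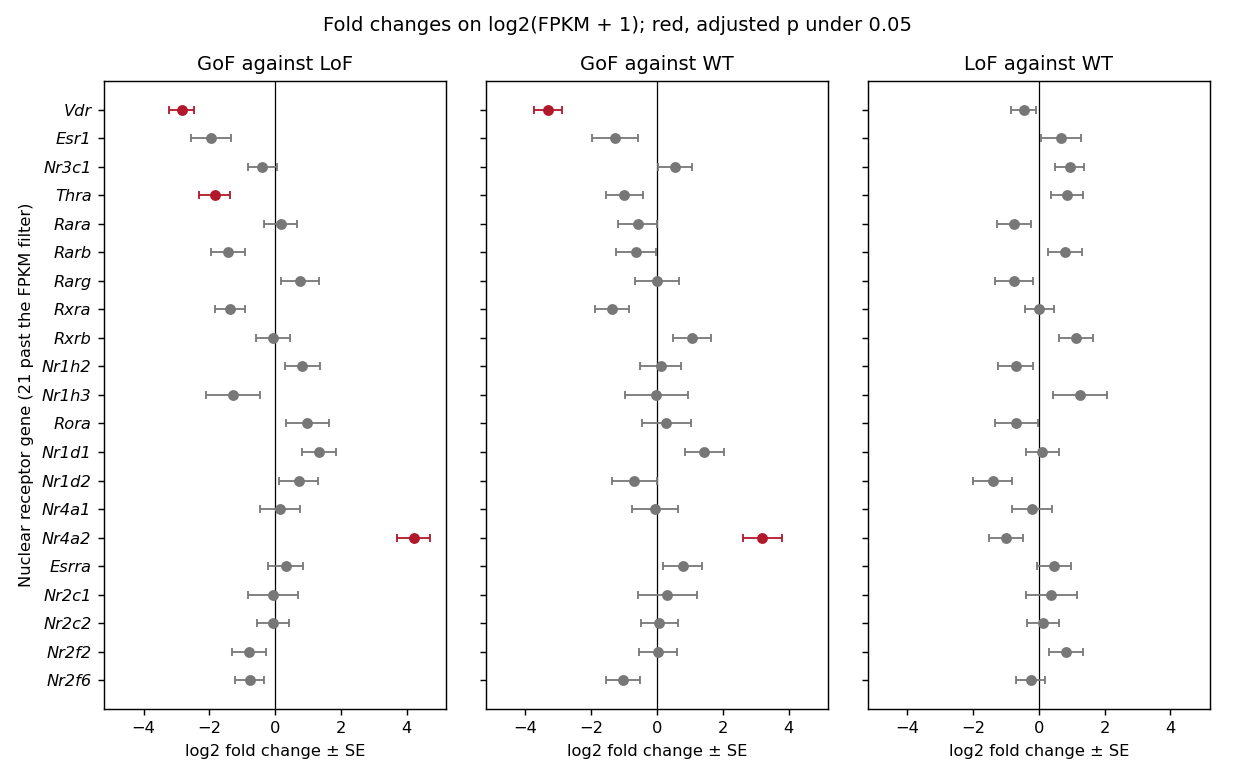
Log2 fold change with its standard error (log2(FPKM + 1) scale, limma) of the 21 tested receptors in GoF against LoF, GoF against WT and LoF against WT, with red for an adjusted p under 0.05. Nr4a2 and Vdr are red in both GoF panels, Thra in GoF against LoF, and no receptor in LoF against WT. Rarb, Nr1h3 and Nr2f2 reached the filter because of LoF, where they are high, so their points are a description.

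Among 16 genes that supply, carry or break down retinoic acid, 8 reached the filter. In GoF against LoF, Aldh1a3 fell and 6 were not called, where 11.6% of all tested genes were called. The remaining gene, Crabp2, reached the filter only through GoF. Aldh1a3, which makes retinoic acid from retinal, was at 3.03 and 3.08 FPKM in GoF, at 20.7, 26.1, 10.3 and 30.5 FPKM in LoF and at 17.6 and 6.10 FPKM in WT. It fell 7.17-fold in GoF against LoF (log2 fold change -2.40, SE 0.52, adjusted p = 0.0151, limma), and both GoF libraries were below all others.

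Crabp2, which carries retinoic acid to its receptors, was at 1.03 and 3.93 FPKM in GoF, listed at 0 throughout LoF, and at 0.889 and 0 FPKM in WT. Its values are a description, with no test, since the GoF libraries in which it is high decided that it reached the filter. Rbp4, the retinol carrier of plasma, was at 116 and 126 FPKM in GoF, at 48.2, 52.2, 49.3 and 102 FPKM in LoF and at 34.7 and 31.1 FPKM in WT. It rose 3.67-fold in GoF against WT (log2 fold change 1.85, SE 0.39, adjusted p = 0.0377, limma), the 1 call among the 8 genes in that comparison, where 2.31% of all tested genes were called. The call of Aldh1a3 held in 9 of 13 other settings, lost without either GoF library, with the replicate block (adjusted p = 0.0547) and with sex as a covariate (0.0719, limma). That of Rbp4 held in 4 of 11, lost without any 1 of the 4 libraries, with no filter, with the block and with sex as a covariate.

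The lipid receptors were led by Nr1h2, the gene of the oxysterol receptor LXR beta. It was at 15.0 and 10.4 FPKM in GoF, at 7.90, 2.95, 11.3 and 6.89 FPKM in LoF and at 18.5 and 6.94 FPKM in WT, with all groups overlapping. Nr1h3, the gene of LXR alpha, was uneven: 0 and 0.363 FPKM in GoF, 3.88, 0.373, 8.72 and 0 FPKM in LoF, and 0.413 and 0 FPKM in WT. In GoF against LoF, where 11.6% of all tested genes were called, 1 of 9 LXR targets tested was called. This was Scd1, which makes monounsaturated fatty acids, at 27.4 and 34.2 FPKM in GoF, at 2.59, 4.98, 2.22 and 0.603 FPKM in LoF and at 5.91 and 5.42 FPKM in WT. It rose 11.9-fold in GoF against LoF (log2 fold change 3.29, SE 0.52, adjusted p = 0.00347, limma), in all of 13 other settings as well.

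The receptors PPAR alpha and PPAR delta, sensors of fatty acids, were near 0. Ppara reached 1 FPKM only in LoF library 4, at 4.75 FPKM, and Ppard only in LoF library 1, at 3.48 FPKM. Ppard was at 0 and 0.513 FPKM in GoF and at 0 and 0.390 FPKM in WT. Of their 12 tested targets, 4 fell in GoF against LoF, where 5.68% of all tested genes were called lower. In LoF against WT 2 of 12 rose, where 0.566% of all tested genes were called higher, and in GoF against WT 1 of 12 fell, where 0.9% were called lower. These counts include Cd36, which reached the filter of 2 libraries only through LoF.

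Cd36, the fatty acid transporter, was listed at 0 in both GoF libraries, at 32.1, 55.0, 23.3 and 26.9 FPKM in LoF and at 1.38 and 0 FPKM in WT. Since the LoF libraries, where it is high, decided that Cd36 was tested, no test of it is given. Acadm, an enzyme of fatty acid oxidation, was at 18.4 and 13.7 FPKM in GoF, at 40.6, 57.5, 51.5 and 53.0 FPKM in LoF and at 12.5 and 12.6 FPKM in WT. It fell 3.15-fold in GoF against LoF (adjusted p = 0.00674) and rose 4.03-fold in LoF against WT (adjusted p = 0.0187, limma). Angptl4, an inhibitor of lipoprotein lipase, was at 4.08 and 9.68 FPKM in GoF, at 56.4, 59.4, 83.9 and 84.8 FPKM in LoF and at 29.9 and 23.6 FPKM in WT.

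Angptl4 fell 10.3-fold in GoF against LoF (adjusted p = 0.000478) and 3.89-fold in GoF against WT (adjusted p = 0.0498, limma). Plin2, a lipid droplet coat protein, was at 17.2 and 12.9 FPKM in GoF, at 30.9, 61.1, 55.3 and 81.4 FPKM in LoF and at 17.2 and 9.79 FPKM in WT, and fell 3.80-fold in GoF against LoF (adjusted p = 0.0206, limma). The Angptl4 call against LoF held in 13 of 13 other settings. Its call against WT held in 2 of 11, being lost without any 1 of the 4 libraries, with a pseudocount of 0.1, with no filter, with the replicate block, with sex as a covariate and with only the groups compared. The Acadm call in LoF against WT held in 8 of 13. It was lost without LoF library 2, WT library 1 or WT library 2, with the replicate block (adjusted p = 0.143) and with sex as a covariate (0.127, limma). In GoF against LoF the Acadm call held in 11 of 13, lost without GoF library 2 and with the block. That of Plin2 held in 8 of 13, lost without GoF library 1, GoF library 2 or LoF library 2, with the block and with sex as a covariate. Of 17 further nuclear receptors outside the 32, 9 were at 0 in every library and 2 were tested, of which 1, Pparg, was called. Many PPAR targets are shared with Pparg, which was at 0 and 0.679 FPKM in GoF, at 15.1, 10.9, 10.6 and 22.4 FPKM in LoF and at 4.72 and 1.47 FPKM in WT (GoF against LoF log2 fold change -3.54, SE 0.52, adjusted p = 0.00230, limma).

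**Figure D4:**
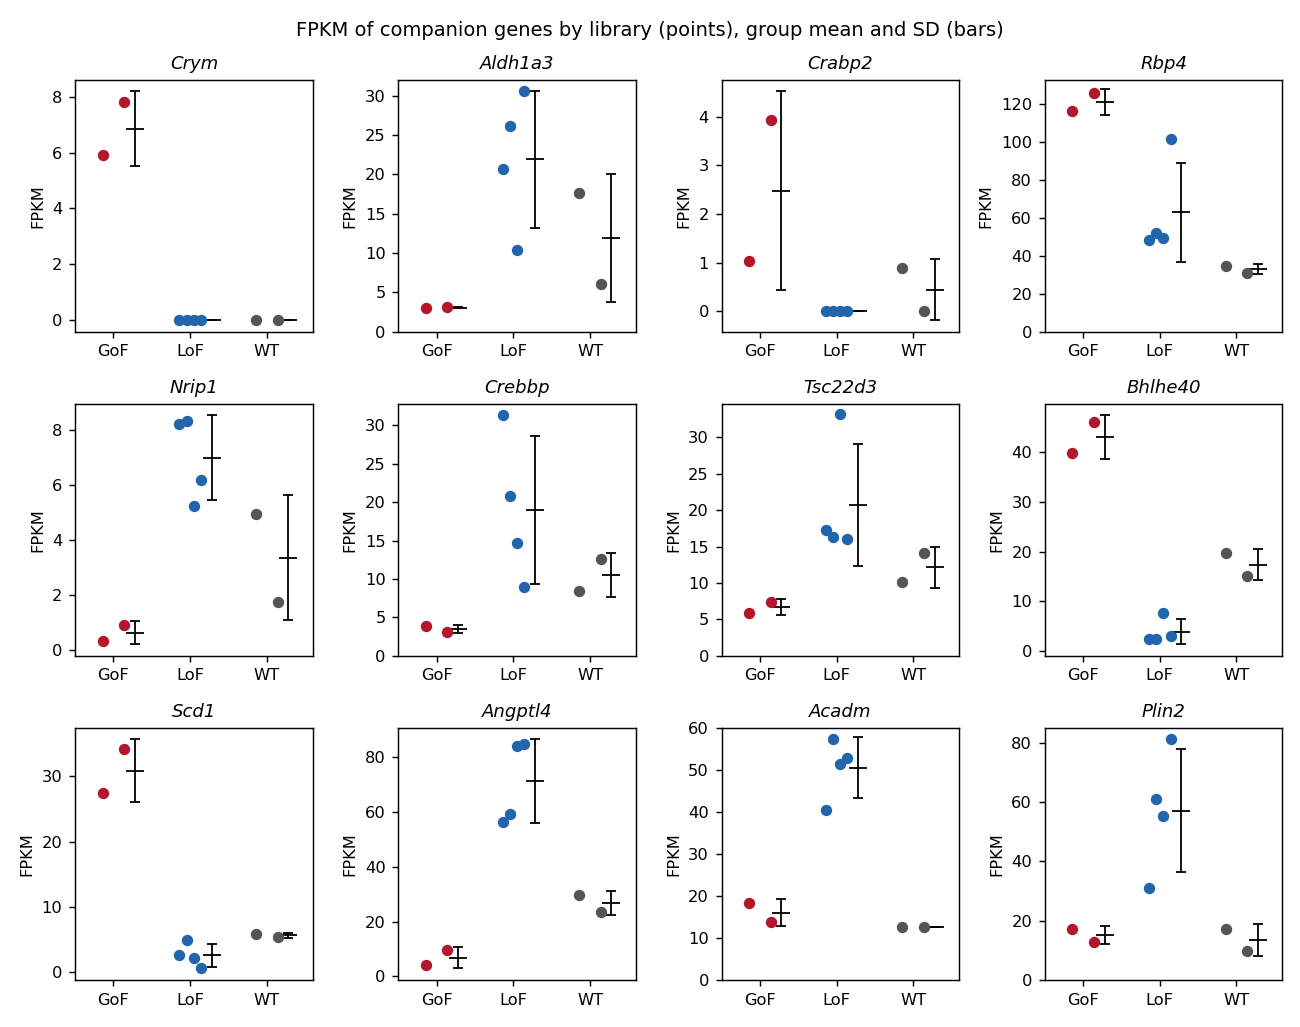
FPKM (linear axis) of 12 genes that handle receptor ligands, are receptor targets or are receptor cofactors, with 1 point per library for GoF, LoF and WT and bars for each group's mean and SD. Crym is above 0 only in the GoF libraries, Bhlhe40 and Scd1 are highest in GoF, and Aldh1a3, Nrip1, Crebbp and Angptl4 are lowest there.

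The clock receptors repress (REV-ERB) or activate (ROR) genes at a shared element. Rora was at 4.48 and 6.56 FPKM in GoF, at 5.85, 1.25, 0.509 and 4.02 FPKM in LoF and at 3.03 and 5.96 FPKM in WT, and the groups overlapped. Nr1d2, the gene of REV-ERB beta, was at 3.48 and 2.52 FPKM in GoF, at 0.245, 2.02, 1.09 and 3.39 FPKM in LoF and at 3.40 and 8.35 FPKM in WT. All LoF libraries were below both WT libraries, LoF library 4 only just, and the difference of -1.40 (SE 0.59) did not pass (adjusted p = 0.342, limma). Rorb was at 0 in all but 1 library. Of 12 tested clock genes, 1 was called in GoF against LoF, where 11.6% of all tested genes were called. The called gene was Bhlhe40 (DEC1), a repressor of clock genes that also responds to hypoxia. It was at 39.9 and 46.1 FPKM in GoF, at 2.34, 2.49, 7.72 and 3.09 FPKM in LoF and at 19.7 and 15.1 FPKM in WT, and rose 10.99-fold in GoF against LoF (log2 fold change 3.28, SE 0.45, adjusted p = 0.00153, limma), in all of 13 other settings as well. The median of the 12 clock genes was 0.12 in that comparison.

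The remaining orphan receptors had no called member. Nr2f6, which encodes the repressor EAR2, was at 2.13 and 2.08 FPKM in GoF, at 6.08, 2.80, 4.87 and 4.14 FPKM in LoF and at 4.50 and 6.27 FPKM in WT. Both GoF libraries were the lowest, but the difference of -1.03 from WT (SE 0.51) did not pass (adjusted p = 0.407, limma). Nr2f6 overlaps Ocel1 on the opposite strand over 5239 bases, and Nr2c2 overlaps Mrps25 over 4770 bases, so their reads cannot be told apart there. Nr2c1 and Nr2c2, the genes of the testicular receptors, were both detected in 7 or 8 libraries, at up to 6.21 and 5.41 FPKM. Nr2f2, the gene of COUP-TFII, reached 1 FPKM only in LoF libraries 1 and 3, at 2.87 and 1.59 FPKM. Nr2f1 stayed at or below 0.550 FPKM, Nr6a1 reached 2.01 FPKM in LoF library 1, and Esrra, a regulator of mitochondrial genes, was at 0 in 5 of 8 libraries.

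Receptors act through shared cofactors, of which 18 of 20 were tested. In GoF against LoF 2 of them fell and 16 were not called, where 11.6% of all tested genes were called. The cofactor median was -0.18, near the -0.17 of all genes. Nrip1 (RIP140), a corepressor of ligand-bound receptors, was at 0.333 and 0.923 FPKM in GoF, at 8.21, 8.33, 5.21 and 6.16 FPKM in LoF and at 4.96 and 1.76 FPKM in WT. It fell in GoF against LoF (log2 fold change -2.30, SE 0.49, adjusted p = 0.0139, limma). Crebbp, the acetyltransferase CBP, was at 3.88 and 3.08 FPKM in GoF, at 31.4, 20.9, 14.6 and 9.004 FPKM in LoF and at 8.47 and 12.6 FPKM in WT. It fell 5.45-fold (log2 fold change -2.03, SE 0.48, adjusted p = 0.0232, limma). The GoF libraries of both genes were below every other library. Leaving out either GoF library lost both calls, and leaving out LoF library 2 lost that of Crebbp. Both were lost with sex as a covariate, Nrip1 with the replicate block and Crebbp with quantile normalization, so that they held in 9 and 8 of 13 other settings. Hdac3 and Ncor1, which form a corepressor complex of unliganded receptors, were among the most abundant uncalled members, with Hdac3 at 23.4 to 31.1 FPKM in GoF, 19.7 to 43.9 FPKM in LoF and 29.1 to 29.4 FPKM in WT. In the other comparisons 0 of 18 cofactors were called.

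Markers of cell types moved with these groups. The 7 osteoblast markers summed to 10547 to 13573 FPKM in GoF, 812 to 2097 FPKM in LoF and 10126 to 12439 FPKM in WT. The 6 chondrocyte markers summed to 291 to 356 FPKM in GoF, 69.2 to 97.2 FPKM in LoF and 162 to 174 FPKM in WT. That sum is mostly Col11a1, the 1 of the 6 called in GoF against LoF, while Sox9, the chondrocyte master regulator, was at 0.165 and 0.130 FPKM in GoF, 0.142 to 4.31 FPKM in LoF and 0 and 1.93 FPKM in WT. The 7 adipocyte markers summed to 0.809 to 4.44 FPKM in GoF, with Adipoq, Plin1 and Cebpa at 0 in both libraries, 501 to 774 FPKM in LoF and 19.5 to 116 FPKM in WT. The marrow stromal markers summed to 47.7 to 76.1, 593 to 1847 and 104 to 360 FPKM in GoF, LoF and WT, and those of pericytes and smooth muscle to 5.86 to 6.94, 75.1 to 181 and 53.5 to 68.2 FPKM. In GoF against LoF, limma called 4 of 6 tested adipocyte markers, 4 of 7 marrow stromal markers and 3 of 7 pericyte markers lower. It called 6 of 7 osteoblast markers higher. Of all tested genes, 5.68% were called lower and 5.97% higher. The adipocyte genes Cebpa, which was called, and Adipoq and Plin1, which were not, would not have reached the filter without the LoF libraries, where they are high. Of 7 hypertrophic chondrocyte markers, 4 were called higher and 2 lower, and 1 of the higher, Ihh, reached the filter only through GoF. Among the higher were the matrix gene Ibsp (15.8-fold) and the channel gene Panx3 (12.1-fold). The lower ones were the collagenase gene Mmp13 (83.6-fold) and the matrix gene Spp1 (6.26-fold). Like Vdr, Thra, Esr1 and Rxra, the adipocyte, marrow stromal and pericyte sums were lower in both GoF libraries than in all 6 others. Between LoF and WT they differed: the sums were higher in every LoF library than in both WT libraries, while these receptors overlapped. Not every member followed its sum. The marrow stromal sum in LoF was mostly Cxcl12. Lepr of that list was higher in GoF (38.1 and 56.9 FPKM) than in LoF (2.15 to 32.6 FPKM), and Pdgfra overlapped between all groups. The pericyte genes Cspg4, Tagln and Rgs5 overlapped between GoF and LoF, and the adipocyte genes Adipoq, Plin1 and Fabp4 did not separate GoF from WT. The osteoblast sum overlapped between GoF and WT and was lower in all 4 LoF libraries.

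The labelled cells expressed the defining gene of their lineage, with Col10a1 at 190 and 177 FPKM in GoF, 9.61 to 114 FPKM in LoF and 6.24 and 20.5 FPKM in WT. Markers of blood cells, chiefly red cells, summed to 895 to 1837 FPKM in GoF, 75.6 to 2272 FPKM in LoF and 2556 to 10532 FPKM in WT. Endothelial markers stayed at or below 57.1 FPKM, the highest in LoF library 3, and those of skeletal muscle at or below 4.12 FPKM. Markers of macrophages and osteoclasts summed to 103 to 110 FPKM in GoF, 67.5 to 86.3 FPKM in LoF and 69.2 to 81.8 FPKM in WT, with Ocstamp and Dcstamp at 0 in all libraries. The part of these markers in the receptor results was not tested.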

How the data were processed

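Per the labels' protocols, RNA from pools of 70 cells was amplified with Smart-seq2. The deposited table holds FPKM values that the authors computed for each gene in each library. The submitters' processing notes name the build mm10 and the tools Cufflinks, HISAT2, HTSeq and SAMtools 0.1.18, with no role or order, and the annotation release is not given in the sources used here. Read totals are unknown, so no counting intervals are given. The value of 1 fragment among low genes, relative to WT library 2, spanned 0.859 to 1.11. FPKM summed to 293194 to 382101 per library. Abundant genes lower the FPKM of the others in the same library.

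Of 48555 lines, 65 repeated a gene ID (49 IDs, with identical values) and were dropped. Values were used as log2(FPKM + 1), filtered at FPKM 1 in 2 libraries, and all 8 libraries were fitted in R 4.3.3 with limma 3.58.1 (a mean per group, mean-variance trend, 10.1 degrees of freedom of which 5.1 from the prior). The code was tested on simulated data. Receptors, lists and tests were chosen with earlier results of these data known. Every receptor is described. Called receptors and the 8 uncalled ones with the smallest unadjusted p, except Rarb, have tests in the text, with up to 4 called and 3 uncalled genes per list. The cell type sums cover 7 hypertrophic chondrocyte markers too, at 9336 to 13374 FPKM in GoF, 12973 to 17155 FPKM in LoF and 8744 to 11756 FPKM in WT. Alternatives were a pseudocount of 0.1, no filter, median ratio and quantile scaling, only the groups compared, a replicate block, sex as a covariate and leaving out each library. Replicates 3 and 4 exist only in LoF, so with the block LoF entered through its libraries 1 and 2 only. The sex term came from LoF alone, since neither GoF nor WT held both sex markers. Promoter windows came from RefSeq (GRCm38.p6), which matched 30 of 32 receptors. Nr3c1 and Thra were not among them. A gene of the retinoid list is not reported here and was left out of that list's counts.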

Additional observations from a re-analysis of the deposited data

Results flagged for a closer look

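In 3 receptors, 1 LoF library stood apart from the other LoF libraries, by the gap to its nearest neighbour as a share of the group's range. LoF was the only group large enough for this check, which was made for 25 receptors (chance flags about 1 in 20 groups of continuous values). Nr3c2, the gene of the mineralocorticoid receptor, was at 1.40 FPKM in LoF library 2 and at 0 in the others. Ppara was at 4.75 FPKM in LoF library 4 and at 0 in the others. With the other 3 libraries at 0, any single value above 0 takes up the whole range, so for these 2 genes the check and its rate say nothing. Rarg was at 0.660 FPKM in LoF library 1, with the gap making up 0.861 of the range of the LoF libraries.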

How the results depend on the processing

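No receptor named with a test changed direction in any alternative. Receptors called in LoF against WT numbered 0 in every alternative. In GoF against WT the count of 2 went to 1 with a pseudocount of 0.1, to 0 with a replicate block and to 0 with sex as a covariate, and ranged from 0 to 1 when 1 library was left out. In GoF against LoF the count of 3 ranged from 2 to 4 when 1 library was left out.

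Over all genes, the 159 calls in LoF against WT became 83 with a pseudocount of 0.1, 53 with no filter, 1 with a replicate block and 14 with sex as a covariate, and 3 to 135 without 1 library. The 298 calls in GoF against WT became 15 with the block, 11 with sex and 48 to 84 without 1 library. The 1501 calls in GoF against LoF became 727 with the block, 974 with sex and 414 to 1400 without 1 library. Scaling moved the median of all genes in GoF against LoF from -0.174 to -0.052 (median ratio, 984 higher and 659 lower calls) or -0.031 (quantile, 885 and 702), where 769 rose and 732 fell without it. In LoF against WT, 73 rose and 86 fell, against 75 and 127 (median ratio) or 80 and 147 (quantile).

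Same-numbered libraries of different groups did not deviate together (r = -0.007 to 0.03), so the replicate numbers give no pairing. With the block the Vdr and Nr4a2 calls against WT were lost (adjusted p = 0.0580 and 0.0789, limma), as was the Thra call against LoF (0.145). Replicates 3 and 4 exist only in LoF, so the block fitted those LoF libraries exactly. Its comparisons with LoF rest on LoF libraries 1 and 2, with a spread from fewer libraries, so a call lost with the block is not a test of pairing. Sex as a covariate gave adjusted p = 0.299 for Nr4a2 against WT and 0.0652 for Thra against LoF, a pseudocount of 0.1 gave 0.203 for Nr4a2 against WT, and no filter gave 0.0606 for Thra against LoF. With 2 libraries in GoF and WT and unknown read totals, levels under about 1 FPKM are imprecise.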
